A study of Mus musculus with 75 samples.

Results

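The Ifit and Ifitm families are groups of short interferon-induced genes whose proteins act against viruses inside the cell. The 7 members Ifit1, Ifit2, Ifit3, Ifitm1, Ifitm2, Ifitm3 and Ifitm6 were chosen by their symbols, and where a symbol had several transcript rows the row with the highest mean value was used. All 7 were found among 20623 genes of a table of 11 mouse tissues, and 6 of them among 16916 genes of a table of choroid plexus from parabionts, where Ifitm6 was not analysed here. The tissue libraries came from C57BL/6 mice labelled wild type (WT) that had no treatment and were perfused with PBS. These mice were either aged (22 months, 3 mice) or young (3 months, 3 mice). Parabionts were C57BL/6 mice in parabiosis, the surgical joining of the blood circulations of a pair of animals, and their choroid plexus alone is described here. There were 2 old heterochronic libraries (22 months, joined to a young partner), 3 old isochronic libraries (22 months, old partner), 3 young heterochronic libraries (3 months, old partner) and 3 young isochronic libraries (3 months, young partner). Which libraries came from partners of a single pair is not given in the sources used here.

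Type I interferons bind a receptor on the cell surface, and the kinases Jak1 and Tyk2 then activate transcription factors that enter the nucleus and bind a short DNA element in front of their target genes. Ifit proteins are targets of this kind that sit in the cytosol: Ifit1 binds viral RNA whose cap lacks the methyl marks of the host, Ifit2 binds other viral RNA and is linked to protection of neurons, and Ifit3 forms complexes with its relatives. Ifitm proteins sit in membranes of the cell surface and of endosomes, where Ifitm3 above all keeps the envelope of an entering virus from fusing. Ifitm1 and Ifitm2 have related actions. The epithelium of the choroid plexus makes the cerebrospinal fluid and separates it from blood.

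The promoter windows of Ifit1, Ifit3 and Ifitm3, whose values separated old from young choroid plexus, and of Ifitm2, whose values did not, are shown because the interferon-activated factor binds such sequences. Each runs from 250 bases before to 50 bases after the annotated start site, 5′ to 3′ in the direction of the gene, from RefSeq with build GRCm38.p6. They lie at chr19:34640639-34640938 on the plus strand for Ifit1, chr19:34583279-34583578 on the plus strand for Ifit3, chr7:141010695-141010994 on the minus strand for Ifitm3 and chr7:140955912-140956211 on the minus strand for Ifitm2. Capitals mark matches, on either strand, to GAAA, 2 bases of any kind and GAAA again, the core of the interferon response element.
Ifit1: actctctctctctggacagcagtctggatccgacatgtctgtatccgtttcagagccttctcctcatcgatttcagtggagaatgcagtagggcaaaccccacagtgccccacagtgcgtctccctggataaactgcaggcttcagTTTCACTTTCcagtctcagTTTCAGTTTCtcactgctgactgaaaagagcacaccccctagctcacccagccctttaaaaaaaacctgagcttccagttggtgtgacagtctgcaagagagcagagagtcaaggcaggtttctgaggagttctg
Ifit3: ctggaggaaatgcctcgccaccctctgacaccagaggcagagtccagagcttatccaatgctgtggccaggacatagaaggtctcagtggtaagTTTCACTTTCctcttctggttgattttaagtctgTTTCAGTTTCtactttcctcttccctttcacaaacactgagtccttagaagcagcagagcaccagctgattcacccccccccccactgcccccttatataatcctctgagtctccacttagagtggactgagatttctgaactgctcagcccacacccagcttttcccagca
Ifitm3: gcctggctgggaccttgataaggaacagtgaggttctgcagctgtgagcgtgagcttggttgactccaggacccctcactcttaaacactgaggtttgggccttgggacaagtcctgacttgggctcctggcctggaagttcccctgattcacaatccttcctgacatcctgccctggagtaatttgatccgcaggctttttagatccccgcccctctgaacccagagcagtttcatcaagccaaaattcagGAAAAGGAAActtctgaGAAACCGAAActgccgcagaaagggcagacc
Ifitm2: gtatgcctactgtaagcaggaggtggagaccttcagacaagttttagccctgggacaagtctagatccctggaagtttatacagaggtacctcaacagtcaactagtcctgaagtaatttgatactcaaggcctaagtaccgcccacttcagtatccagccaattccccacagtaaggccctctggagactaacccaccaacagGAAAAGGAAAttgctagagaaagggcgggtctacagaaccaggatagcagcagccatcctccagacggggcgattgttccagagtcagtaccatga

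Ifit1 and Ifit3 each held 2 matches before the start site, with first bases at -104 and -85 in Ifit1 and at -156 and -122 in Ifit3, counting the start site as 0. Both genes carry the same pair of 10-base sequences in the same order. Ifitm3 held 2 matches just after the start site, at 2 and 19, and Ifitm2 held 1, at -46, with the same letters as the first match of Ifitm3. The windows of Ifit2, Ifitm1 and Ifitm6 held none, which says only that these letters are not in these windows. The 2 matches of a window did not overlap each other, and the 2 in the Ifit1 window also fall in the window of Ifit1bl2, a neighbour read from the other strand. Of 26994 genes with a promoter window of this length, 1074 held the sequence in a window, which is 3.98%, against 4 of the 7 members. A match is a description of the sequence and was not tested as a binding site.

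**Figure D1:**
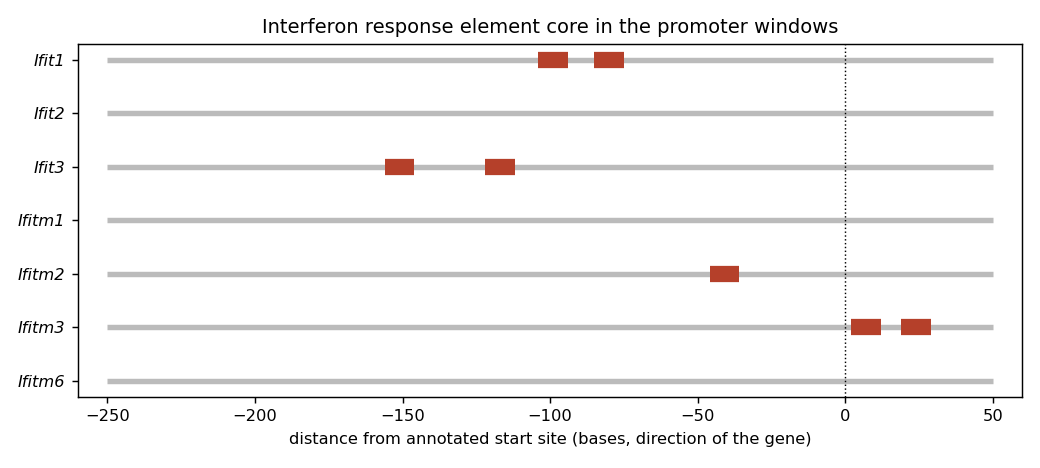
Each grey line is the RefSeq promoter window of a member, from 250 bases before to 50 bases after the start site (x axis, bases), and each red block is a 10-base match to the core of the interferon response element on either strand. Ifit1, Ifit3 and Ifitm3 hold 2 matches each and Ifitm2 holds 1.

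Values are the deposited signal, taken here as reads per transcript divided by 1 factor per library. Libraries held an estimated 187524 to 1134078 reads in tissues and 533564 to 990065 in parabionts, over the row kept for each gene. By the same estimate 1 read was worth 0.527 to 2.19 and 0.783 to 1.48 units. Ifit2, which averaged 3.21 in tissues, therefore rested on a few reads per library. Markers of the choroid plexus epithelium (Ttr, Folr1, Kcnj13, Kl, Aqp1 and Otx2) summed to 212100 to 257100 in aged and 226600 to 273800 in young choroid plexus, and to at most 20490 in any other tissue. Several libraries of young mouse 2 carried markers of a second organ. Lung markers summed to 35240 in its spleen library, against at most 80.94 in the other spleens, and liver markers to 57990 in its lung library, against at most 293.8 in the other lungs. Colon markers reached 6193 in its mesenteric lymph node library, thymocyte markers 1321 in its liver library, neuron markers 1835 in its cervical lymph node library and B cell markers 759.8 in its hippocampus library. Its choroid plexus library stood with the others. The liver library of young mouse 1 had lung markers at 5897, against at most 117.5 in the other livers. In inguinal lymph nodes, aged mouse 3 had a fat cell marker sum of 20070, against at most 1366 in the other 5. RNA of choroid plexus was purified with another kit than that of the other tissues, per the labels, so a difference in level between choroid plexus and another tissue cannot be told apart from one of kit, while aged and young libraries of a tissue share a kit. In bulk tissue, fewer cells of a type and less RNA per cell cannot be told apart.

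In young mice the members were highest in different tissues. Ifitm6 was highest in bone marrow, at 277.4 and 265.4 in the 2 young marrow libraries. The next tissues were spleen (median 5.89) and lung (median 3.23), and all 6 choroid plexus libraries, aged and young, listed it at 0. Ifitm3 was highest in liver, at 955.3, 402.7 and 830.6 in young mice 1, 2 and 3, where the low library is that of mouse 2 and mouse 1 carries the lung markers. It followed in lung (median 407.3), bone marrow (315.2) and spleen (193.8), and was low in choroid plexus (49.91) and hippocampus (10.84). Ranges of neighbours in that order overlapped throughout. Without young mouse 2, liver (830.6 and 955.3), lung (311.0 and 407.3), bone marrow (231.5 in 1 library) and spleen (at most 193.8) lay apart from each other. Cervical lymph nodes (1 library) then also lay apart above colon, and choroid plexus apart above hippocampus. Ifitm2 also led in liver (median 206.1) and lung (157.4), which overlapped only through the liver library of young mouse 2, at 87.44. Bone marrow (90.66) lay apart below lung, and colon (70.55) apart below bone marrow.

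Ifitm1 was most abundant in lung (median 59.93), inguinal lymph nodes (57.11), bone marrow (55.34) and spleen (49.57), each overlapping the next, and least in thymus (9.06) and hippocampus (2.43). Ifit1 was highest in young liver, at 23.78, 18.04 and 21.95, above every lung library (median 14.54), while thymus (median 13.87) reached up to 23.56 and overlapped liver. It was lowest in choroid plexus (2.51) and hippocampus (2.43), which overlapped. Ifit3 was high in inguinal lymph nodes (37.85), spleen (37.04), lung (35.57) and liver (27.72), whose ranges overlapped, and low in choroid plexus (3.14) and colon (2.61). Young choroid plexus therefore ranked 10 of 11 by median for Ifit1, Ifit3 and Ifitm3, 8 for Ifitm1 and 5 for Ifitm2. Without young mouse 2 it ranked 11 for Ifit1 and Ifit3, 10 for Ifitm3 and 6 for Ifitm2. Ifit2 had medians of 5.62 or less in all 11 tissues and was listed at 0 in the 3 young choroid plexus libraries.

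**Figure D2:**
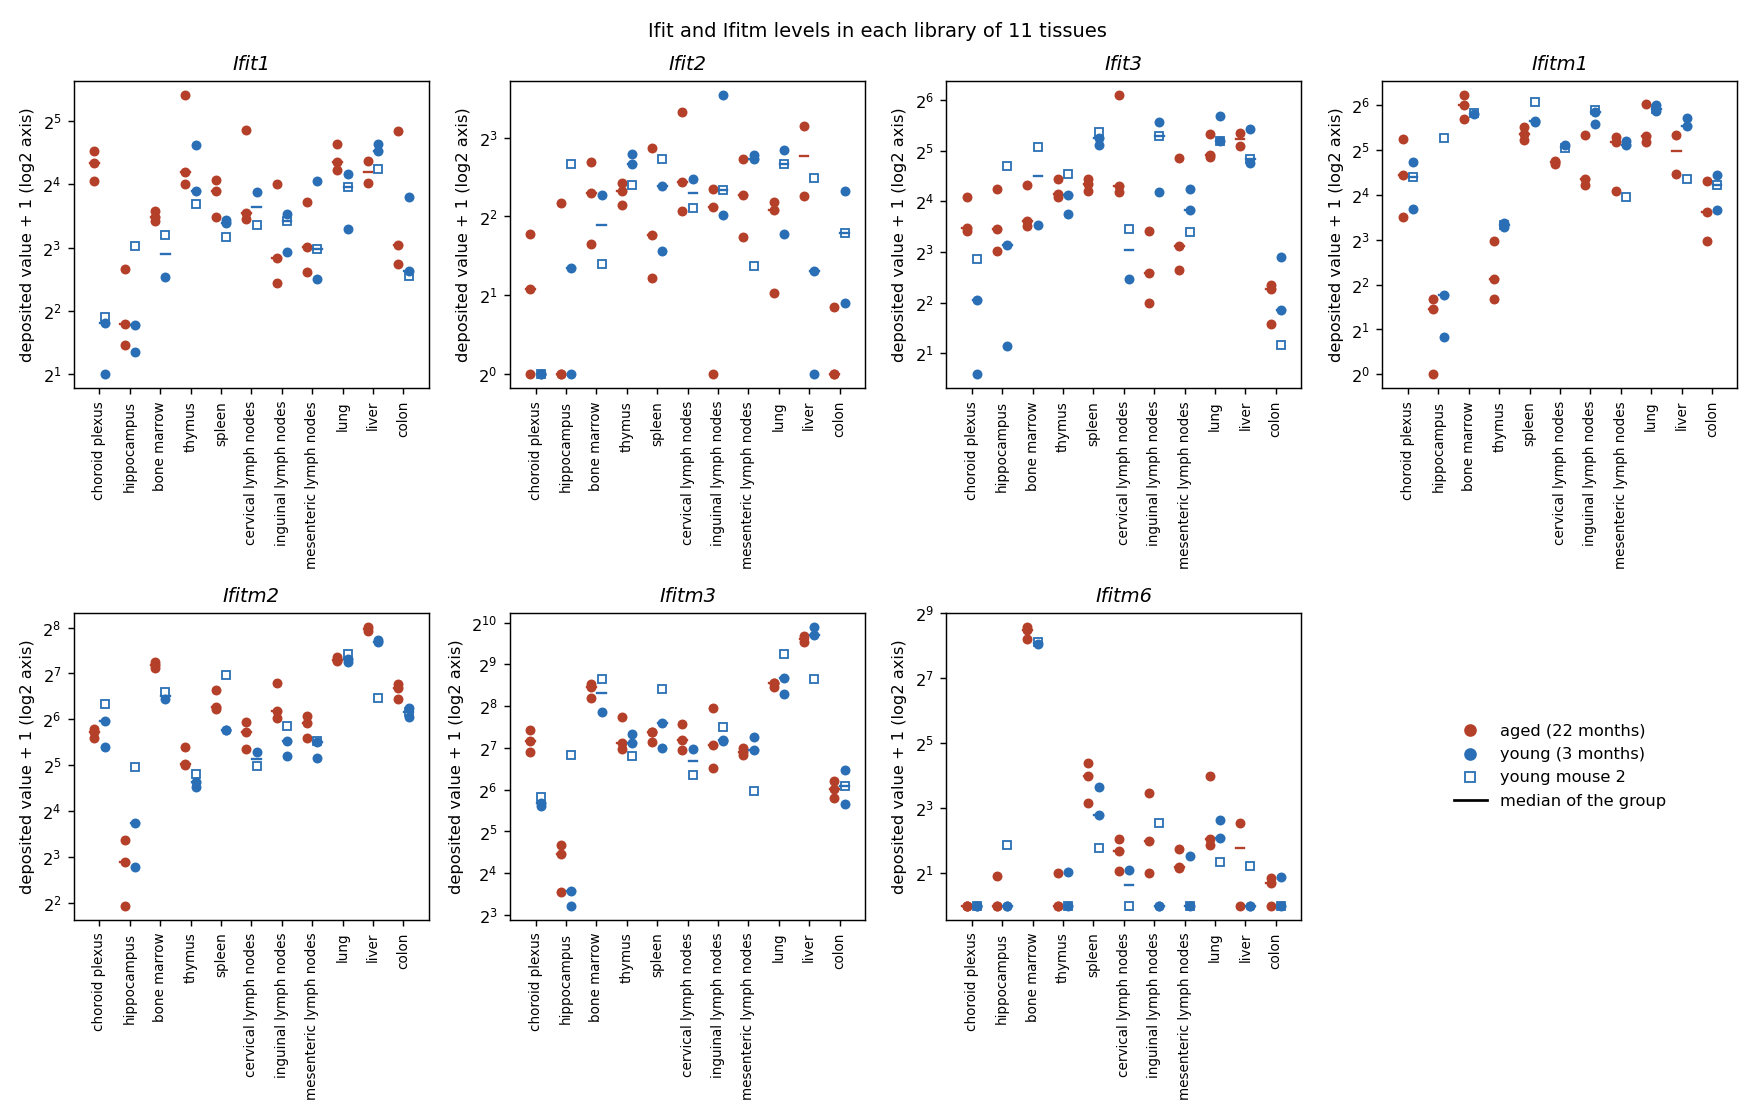
Each panel gives 1 member, with a point for each library (deposited value plus 1 on a log2 axis) in 11 tissues, aged mice in red on the left and young mice in blue on the right, with open squares for young mouse 2 and a bar at each group's median. Aged choroid plexus lies above young for Ifit1 and Ifitm3, while Ifitm6 stands high only in bone marrow.

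Ifit1 and Ifitm3 rose in aged choroid plexus. Ifit1 was at 19.2, 22.0 and 15.66 in aged mice, against 0.998, 2.76 and 2.51 in young mice. Every aged library was above every young one, and the aged median of 19.2 ranked 2 of 11 among aged tissues, after lung at 19.43. Ifitm3 was at 171.1, 117.9 and 143.0 in aged mice, against 49.91, 55.91 and 48.1 in young mice. The groups were again apart, and the young libraries were close to each other. The third gene without overlap, Ifit3, was at 9.60, 15.89 and 10.07 in aged mice, against 0.499, 6.21 and 3.14 in young mice.

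Differences were tested with limma on log2(value + 1), which understates the change of genes near 0, and adjusted by Benjamini-Hochberg over all genes tested. Ifit1 rose by log2 2.73 (SE 0.483, adjusted p = 0.00147) and Ifitm3 by log2 1.46 (SE 0.198, adjusted p = 2.21e-05). Ifit3 differed by log2 1.82 (SE 0.553) but did not pass (adjusted p = 0.318), nor under any of 13 alternatives (adjusted p = 0.123 to 0.805). Of the 7 members 5 passed the filter on low values, and 2 were called higher, where 0.285% of the 11582 genes tested were called and 0.25% called higher. The 3 members without overlap above compare with 5.41% of genes. The median of the 5 members was log2 1.46, against -0.01 over all genes tested. Neither call held in limma without a mean-variance trend (adjusted p = 0.105 for Ifit1 and 0.266 for Ifitm3), and voom left Ifit1 just short (adjusted p = 0.0504). Over 14 alternatives the adjusted p ran from 9.06e-05 to 0.105 for Ifit1 and from 4.06e-09 to 0.266 for Ifitm3, with 12 and 13 under 0.05.

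The other members did not pass. Ifitm2 was at 52.21, 47.05 and 54.62 in aged mice, against 40.89, 79.59 and 61.02 in young mice (log2 -0.19, limma adjusted p = 0.96). Ifitm1 was at 37.13, 10.39 and 20.7 in aged mice, against 25.46, 20.02 and 11.92 in young mice (log2 0.13, limma adjusted p = 0.98). For both genes the aged and young libraries overlapped. Ifit2, too low to test, had 0, 2.44 and 1.12 in aged mice, against 0 in the 3 young mice.

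Cell type markers were measured beside these genes. Macrophage and microglia markers (10 genes such as Csf1r, C1qa and Cd68) summed to 475.6, 143.0 and 173.4 in aged choroid plexus, against 127.4, 136.7 and 142.4 in young choroid plexus. The aged sums all lay above the young ones, and 2 of the 8 markers tested had no overlap. The closest sums, 143.0 in aged and 142.4 in young, differed by less than the value of 1 read. Aged mouse 1, with the highest sum, also had the highest Ifitm3 value. Without it Ifit1 was at log2 2.72 (limma adjusted p = 0.0241) and Ifitm3 at log2 1.33 (limma adjusted p = 0.000925), both still called. The remaining aged macrophage sums also lay above the young ones. Monocyte and neutrophil markers summed to 173.0 to 378.8 in aged and 178.0 to 241.8 in young libraries, and endothelial markers to 35.8 to 75.5 in aged and 67.9 to 91.1 in young libraries. The part of these cells in the rise of Ifit1 and Ifitm3 was not tested. T cell sums stayed at or below 6.40 in aged and 4.54 in young libraries.

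Other interferon genes were counted by role, from lists chosen with earlier results of these data known. Of the ligands, 9 interferon genes were in the table and 0 were high enough to test. The 6 receptor chains were all tested and none was called. Among the 9 transducers 1 was called higher: Irf7, the factor that amplifies the response, averaged 15.93 ± 8.38 in aged and 1.96 ± 0.565 in young choroid plexus (SD, n = 3 each, log2 2.43, limma adjusted p = 0.0161). Of 30 effectors tested 7 were called higher and 0 lower, and their median was log2 0.88. Isg15, a ubiquitin-like protein that is attached to others during infection, averaged 21.13 ± 8.32 in aged and 1.88 ± 0.97 in young libraries (SD, n = 3 each, log2 2.93, limma adjusted p = 0.000748). Bst2, which tethers virus to the cell surface, rose by log2 1.62 (adjusted p = 1.32e-05), Lgals3bp, a secreted binding protein, by log2 1.11 (adjusted p = 3.64e-05) and Ifi27l2a by log2 2.02 (adjusted p = 0.000643). The change of Ifit1 lay close to that of Isg15, and that of Ifitm3 close to that of Bst2. Ifit3b, the near copy of Ifit3, was at log2 1.22 (adjusted p = 0.852). It shares 62.5% of the 30-base words of the Ifit3 transcript, so the counting may have split reads between the 2 genes, and Ifit3 values are uncertain to that extent. Ifitm1, Ifitm2 and Ifitm3 share 1.56% to 6.39% of such words with each other, and Ifit1 shares 9.29% with Ifit1bl2.

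**Figure D3:**
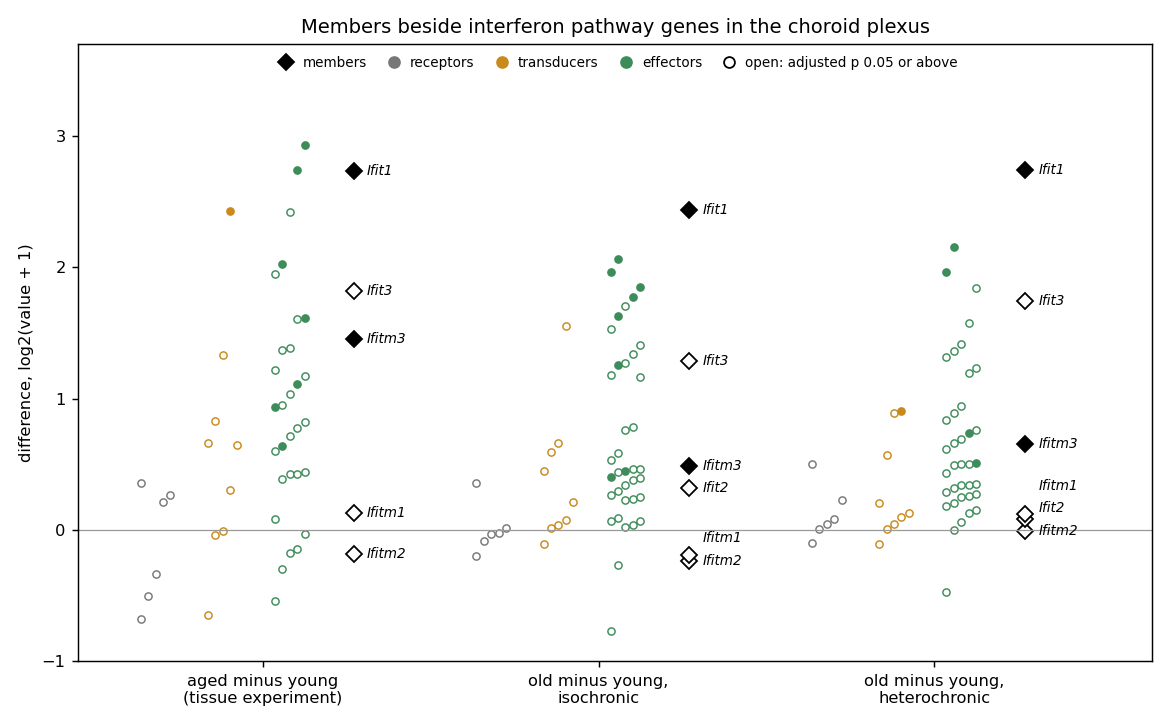
Each point is a gene's difference in log2(value + 1) between older and young choroid plexus in 3 comparisons (x axis), with diamonds for the members and circles for receptors, transducers and effectors of the interferon pathway; filled symbols have an adjusted p under 0.05. Ifit1 and Ifitm3 are filled in all 3 comparisons, Ifit3 lies above Ifitm3 but is open, and Ifitm1 and Ifitm2 lie near 0.

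In the other 10 tissues no member was called by limma, with or without the trend, or by voom, and 8 of 62 member differences tested over the 10 tissues (12.9%) had an unadjusted p under 0.05. Over all genes the share was 7.74% of 122453 differences, and 3.07% to 14.1% by tissue. The share of all tested genes called was 1.09% in thymus, 0.146% in spleen, 0.123% in colon, 0.0318% in cervical lymph nodes, 0.017% in liver, 0.0163% in mesenteric lymph nodes and 0.00762% in lung, and 0% in bone marrow, hippocampus and inguinal lymph nodes. Ifit1 differed by between log2 -0.28 in liver and 0.63 in bone marrow there, against 2.73 in choroid plexus. Ifitm3 lay between log2 -0.37 in spleen and 0.57 in cervical lymph nodes, against 1.46 in choroid plexus.

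Ifit3 lay on both sides. In inguinal lymph nodes it was at 2.97, 9.68 and 5.04 in aged mice, against 46.29, 37.85 and 17.27 in young mice (log2 -2.35, SE 0.52, limma adjusted p = 0.846). Every aged library was below every young one, as for 6.23% of genes. Without the aged library that carried fat markers the difference was log2 -2.31 and passed (SE 0.464, adjusted p = 0.0251), and over the other alternatives it did not pass. T cell markers summed to 42.1 to 371.8 in aged and 523.3 to 658.1 in young inguinal nodes, with 4 of 5 tested all below, and thymocyte markers to 3.36 to 64.2 in aged and 136.8 to 197.3 in young nodes; their part in the Ifit3 difference was not tested. In spleen Ifit3 was at 19.17, 20.77 and 17.39 in aged mice, against 37.04, 40.41 and 33.38 in young mice (log2 -0.92, adjusted p = 0.385). The spleen groups did not overlap either, as for 7.28% of genes, and without young mouse 2 the difference was log2 -0.85 (adjusted p = 0.392). In cervical lymph nodes Ifit3 was at 17.19, 18.71 and 67.49 in aged mice, against 9.96 and 4.55 in young mice (log2 1.90, adjusted p = 0.482), with no overlap, as for 12.5% of genes above, and the difference was log2 1.28 without the library of 67.49. In these nodes macrophage markers summed to 3217 to 4101 in aged and 1834 to 2770 in young mice, and T cell markers to 287.0 to 364.5 in aged and 470.7 to 694.3 in young mice, and their part was not tested. In spleen Ifit1 was at 15.86, 13.84 and 10.19 in aged mice, against 9.53, 8.002 and 9.82 in young mice (log2 0.48, adjusted p = 0.708), with the aged libraries all above, as for 8.24% of genes. Monocyte and neutrophil markers summed to 1622 to 2314 in aged and 861.8 to 1084 in young spleen, with 6 of 11 all above, and their part in the Ifit1 and Ifit3 values was not tested. Ifit1 groups were apart in the same direction in lung (log2 0.60, adjusted p = 0.593) and bone marrow (log2 0.63, adjusted p = 0.848), where 10.3% and 12% of genes were. In inguinal lymph nodes the Ifit1 groups overlapped, at 4.46, 6.11 and 15.1 in aged mice, against 10.62, 9.77 and 6.64 in young mice (log2 -0.20, SE 0.532, limma adjusted p = 0.943). The near copy Ifit3b, which may share reads with Ifit3, overlapped in inguinal nodes (1.49 to 11.75 in aged, 8.35 to 11.95 in young). It overlapped in spleen too (4.41 to 6.90 in aged, 4.91 to 12.7 in young). In cervical nodes it did not (4.99 to 21.37 in aged, 0 to 2.49 in young). Whether Ifit1 and Ifit3 differed from each other in a tissue was not tested. Of 51 transducers and effectors tested, 7 lay above 0 in inguinal lymph nodes (median log2 -0.55), 26 in spleen (median 0.02) and 43 in cervical lymph nodes (median 0.61). Of all genes tested 50.1%, 49% and 49.1% did. Counts also leaned to a side elsewhere, with 10 of 43 above 0 in hippocampus (median -0.59, against 58.5% of all genes). They were 35 of 49 in lung (0.23, against 52.4%) and 36 of 50 in mesenteric lymph nodes (0.17, against 49.7%). In each of these tissues 0 were called.

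Ifitm2, flat in choroid plexus, had every aged library above every young one in 7 of the 11 tissues and was called in none. In bone marrow it was at 137.9, 151.1 and 144.8 in aged mice, against 95.23 and 86.1 in young mice (log2 0.67, limma adjusted p = 0.56). In colon it was at 108.6, 85.74 and 102.3 in aged mice, against 75.25, 70.55 and 65.05 in young mice (log2 0.48, adjusted p = 0.381). The other 5 were liver, thymus and the 3 lymph node sites, at log2 0.46 to 0.82. The share of all genes with no overlap above in these tissues ran from 6.36% in inguinal lymph nodes to 12.5% in cervical lymph nodes, being 12% in bone marrow, 11.8% in thymus, 10.8% in liver, 9.56% in colon and 8.67% in mesenteric lymph nodes. In liver the Ifitm2 difference was log2 0.68 with all libraries and 0.26 without young mouse 2. The tissues come from the same 6 mice and are not independent.

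Ifitm1 lay below 0 in 8 of 11 tissues, and in 4 of them the aged libraries were all below the young ones. Of all genes, 49% to 58.5% lay above 0 by tissue. The 8 include hippocampus, where Ifitm1 passed the filter only through the library of young mouse 2, so its sign there is no result. In thymus it was at 6.89, 2.19 and 3.33 in aged mice, against 9.41, 9.06 and 8.74 in young mice (log2 -1.08, adjusted p = 0.302). No overlap below was found for 8.03% of thymus genes. The spleen, inguinal and cervical lymph node values were log2 -0.41, -1.15 and -0.35, with shares of 7.28%, 6.23% and 11.1%. Ifitm6 was tested in spleen, lung, bone marrow and inguinal lymph nodes and lay above 0 in each. In any single one of these tissues 49% to 52.9% of all genes did. In inguinal lymph nodes it passed the filter only through the aged libraries (mean 4.69, against 1.63 in young), so its sign there is no result. Without young mouse 2 Ifitm6 was at log2 0.63 in spleen and 0.27 in lung, against 1.12 and 0.61 with that mouse. It was then at 2.16 in inguinal lymph nodes and 0.36 in bone marrow, against 1.305 and 0.33. Without aged mouse 3, which carried fat markers in inguinal lymph nodes, it was too low to test there. In bone marrow Ifitm6 was at 381.4, 356.2 and 290.7 in aged mice, against 277.4 and 265.4 in young mice (log2 0.33, adjusted p = 0.824), where the groups were apart. Monocyte and neutrophil markers summed to 73960 to 91340 in aged and 68170 to 72830 in young marrow, and B cell markers to 156.6 to 220.4 in aged and 318.4 to 413.6 in young marrow, with 4 of 4 tested all below; their part was not tested. The libraries of young mouse 2 decided the sign in some places. In hippocampus Ifitm3 was at 20.99, 10.7 and 24.37 in aged mice, against 10.84, 113.2 and 8.29 in young mice, and the difference was log2 -0.31 with the library of 113.2 and 0.83 without it (adjusted p = 0.936 and 0.77). Ifitm1 in hippocampus had 37.72 in that library, against 0.774 and 2.43 in the other young mice, and without it was too low to test.

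**Figure D4:**
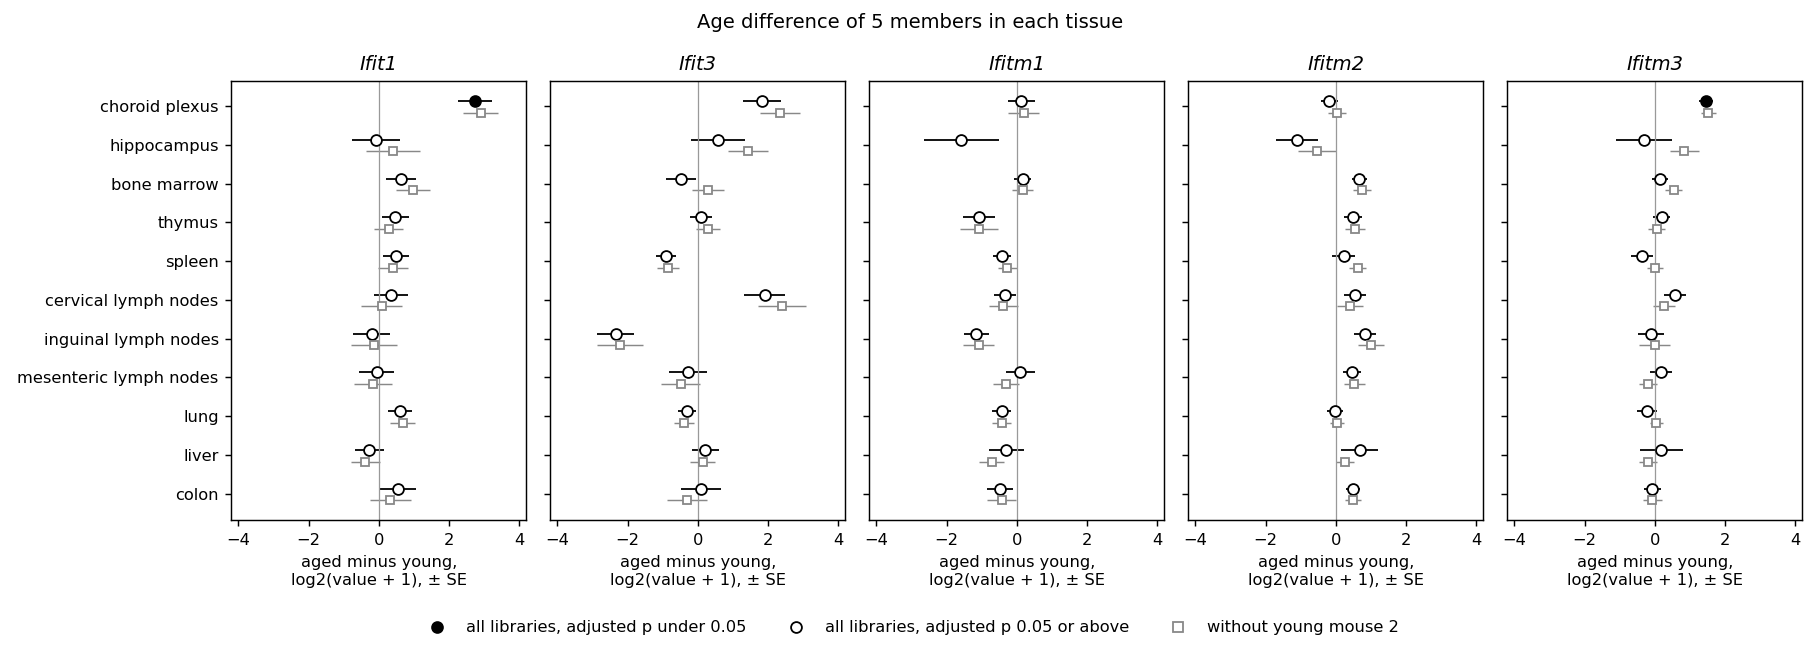
Each panel gives the age difference of 1 of 5 members in 11 tissues (x axis, aged minus young in log2(value + 1) with its standard error), as circles with all libraries and as grey squares without young mouse 2. The filled circles, adjusted p under 0.05, are Ifit1 and Ifitm3 in choroid plexus.

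Whether the age difference in choroid plexus exceeded the mean of the other 10 tissues was tested in a single limma fit of the 63 tissue libraries that also had a term for each mouse. Ifit1 had a larger difference in choroid plexus, by log2 2.48 (SE 0.51, adjusted p = 0.0163), and was the 1 member called of 7 tested, where 0.148% of 16257 genes were called and 0.105% called higher. Ifit3 was at log2 1.97 (SE 0.6, adjusted p = 0.325) and Ifitm3 at log2 1.44 (SE 0.509, adjusted p = 0.549), and neither passed. Ifitm3 passed without young mouse 2 (log2 1.42, SE 0.294, adjusted p = 0.0219), against an SE of 0.509 with that mouse. The Ifit1 call was lost without aged mouse 1, aged mouse 2, young mouse 1 or young mouse 3 (log2 2.40, 2.33, 2.24 and 2.55, with adjusted p = 0.174, 0.179, 0.131 and 0.0766) and with voom (adjusted p = 0.0639). Over 14 alternatives its adjusted p ran from 0.0021 to 0.179. Ifitm2 (log2 -0.52) and Ifitm6 (log2 -0.60) lay below 0, and Ifit2 (1.19) and Ifitm1 (0.70) above it. Of 42 effectors tested 2 were called higher, Rtp4 (log2 2.93, adjusted p = 0.0163) and Isg15 (log2 2.61, adjusted p = 0.0392).

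The parabiosis experiment asked whether the blood of a partner of the other age changes the choroid plexus. Age separated the libraries for Ifit1 and Ifitm3 here too, in isochronic and heterochronic pairs alike. In isochronic pairs Ifit1 was at 87.28, 60.19 and 67.88 in old mice, against 7.37, 11.8 and 21.04 in young mice. The lowest old library was above the highest young one. Ifitm3 was at 164.7, 170.9 and 183.4 in old isochronic mice, against 116.9, 137.3 and 116.2 in young isochronic mice, also apart. Ifit3 was at 36.06, 25.99 and 50.88 in old isochronic mice, against 12.38, 10.96 and 21.45 in young isochronic mice, again apart.

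Ifit1 rose in old isochronic mice by log2 2.43 (SE 0.3, limma adjusted p = 0.000101) and Ifitm3 by log2 0.49 (SE 0.0932, adjusted p = 0.0159). Ifit3 was at log2 1.28 (SE 0.33) and did not pass (adjusted p = 0.198), although it passed in a fit of only the 2 groups (adjusted p = 0.013) and without either old heterochronic library (adjusted p = 0.0473 and 0.0404), and reached up to 1 elsewhere. These 2 called of 6 members compare with 0.186% of 13434 genes called (0.149% called higher), and the 3 without overlap above with 5.7%. The Ifitm3 call was lost without any of 5 of the 6 libraries compared: young isochronic 1 and 5 (adjusted p = 0.0988 each) and old isochronic 19, 21 and 23 (0.0655, 0.105 and 0.302). Both calls were lost without the trend (adjusted p = 0.126 for Ifit1 and 0.389 for Ifitm3), and that of Ifit1 with voom (0.224). Over 19 alternatives the adjusted p ran from 3.22e-06 to 0.224 for Ifit1 and from 0.00168 to 0.389 for Ifitm3, and the log2 change from 2.10 to 2.80 and from 0.44 to 0.56.

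In heterochronic pairs Ifit1 was at 98.76 and 42.14 in old mice, against 10.71, 7.48 and 8.56 in young mice. Ifitm3 was at 175.2 and 160.9 in old heterochronic mice, against 103.8, 99.08 and 116.6 in young heterochronic mice. Ifit3 was at 63.01 and 22.92 in old heterochronic mice, against 12.75, 6.98 and 13.59 in young heterochronic mice. None of these groups overlapped, and the 2 old libraries differed more from each other for Ifit1 and Ifit3 than the 3 young ones did. Ifit1 rose by log2 2.74 (SE 0.335, limma adjusted p = 0.000219) and Ifitm3 by log2 0.66 (SE 0.104, adjusted p = 0.00139). Ifit3 was at log2 1.74 (SE 0.369, adjusted p = 0.0623) and did not pass. It did so with quantile normalization (adjusted p = 0.0471) and without old heterochronic 34 (log2 2.45, adjusted p = 0.00189), with a range over 19 alternatives up to 0.466. The 2 members called of 6 compare with 0.127% of genes called (0.104% higher) and the 3 without overlap above with 11%. Both calls were lost without the trend (adjusted p = 0.125 for Ifit1 and 0.164 for Ifitm3) and that of Ifit1 with voom (0.3). The lowest adjusted p over 19 alternatives was 9.15e-06 for Ifit1 and 0.00064 for Ifitm3.

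A partner of the other age was not followed by a called change in any member. Between old heterochronic and old isochronic mice 0 of 6 members and 0% of genes were called, and 1192 genes had an unadjusted p under 0.05. Ifit1 differed by log2 -0.13 (SE 0.335), Ifit3 by 0.07 (SE 0.369) and Ifitm3 by -0.04 (SE 0.104). Between young heterochronic and young isochronic mice 0 of 6 members and 0% of genes were called as well, and 866 genes had an unadjusted p under 0.05. Ifitm3 was at log2 -0.21 (SE 0.0932, limma adjusted p = 0.762), Ifit1 at -0.44 (SE 0.3) and Ifit3 at -0.39 (SE 0.33). Only Ifitm3, of the members, had an unadjusted p under 0.05 in either contrast, and voom called 0 members in both. The interaction, the heterochronic effect in old minus that in young mice, gave 0 members called of 6 and 0% of genes (851 with an unadjusted p under 0.05), with log2 0.31 for Ifit1 (SE 0.45) and 0.17 for Ifitm3 (SE 0.14).

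For Ifitm1, Ifitm2 and Ifit2 old and young libraries overlapped in isochronic and in heterochronic pairs, and none passed the test. Ifitm2 averaged 93.21 ± 9.02 in old heterochronic (n = 2), 87.86 ± 8.58 in old isochronic, 93.35 ± 5.9 in young heterochronic and 103.7 ± 13.6 in young isochronic mice (SD, n = 3 in each of the 3). Ifitm1 averaged between 29.65 in young heterochronic and 37.27 in young isochronic mice, and Ifit2 between 3.08 in young isochronic and 4.41 in old isochronic mice. Macrophage and microglia markers summed to 355.6 and 461.4 in old heterochronic and 226.4 to 343.8 in young heterochronic mice, and to 354.7 to 382.6 in old isochronic and 348.4 to 451.8 in young isochronic mice. These sums overlapped in isochronic pairs and did not in heterochronic pairs, where 3 of the 10 markers lay all above. Monocyte and neutrophil markers summed to 129.6 and 165.1 in old heterochronic and 103.4 to 121.0 in young heterochronic mice, and to 116.8 to 137.0 in old isochronic and 89.05 to 112.9 in young isochronic mice, without overlap in either. In isochronic pairs sums were lower in the old mice, without overlap, for endothelium (236.5 to 271.9 in old, 279.5 to 307.0 in young), fibroblasts and pericytes (367.1 to 386.9 in old, 438.4 to 482.7 in young) and erythroid cells (50.43 to 61.38 in old, 68.93 to 121.1 in young). Single markers differed: of 6 for endothelium 2 lay all below and 1 all above. For fibroblasts and pericytes 3 of 6 lay all below, and for erythroid cells 1 of the 2 tested. The part of these cells in the rise of Ifit1 and Ifitm3 was not tested. No gene of the parabiosis table was above 993 reads, so a sum of its most abundant genes may follow the library factor, and markers of the epithelium are not compared between its groups.

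**Figure D5:**
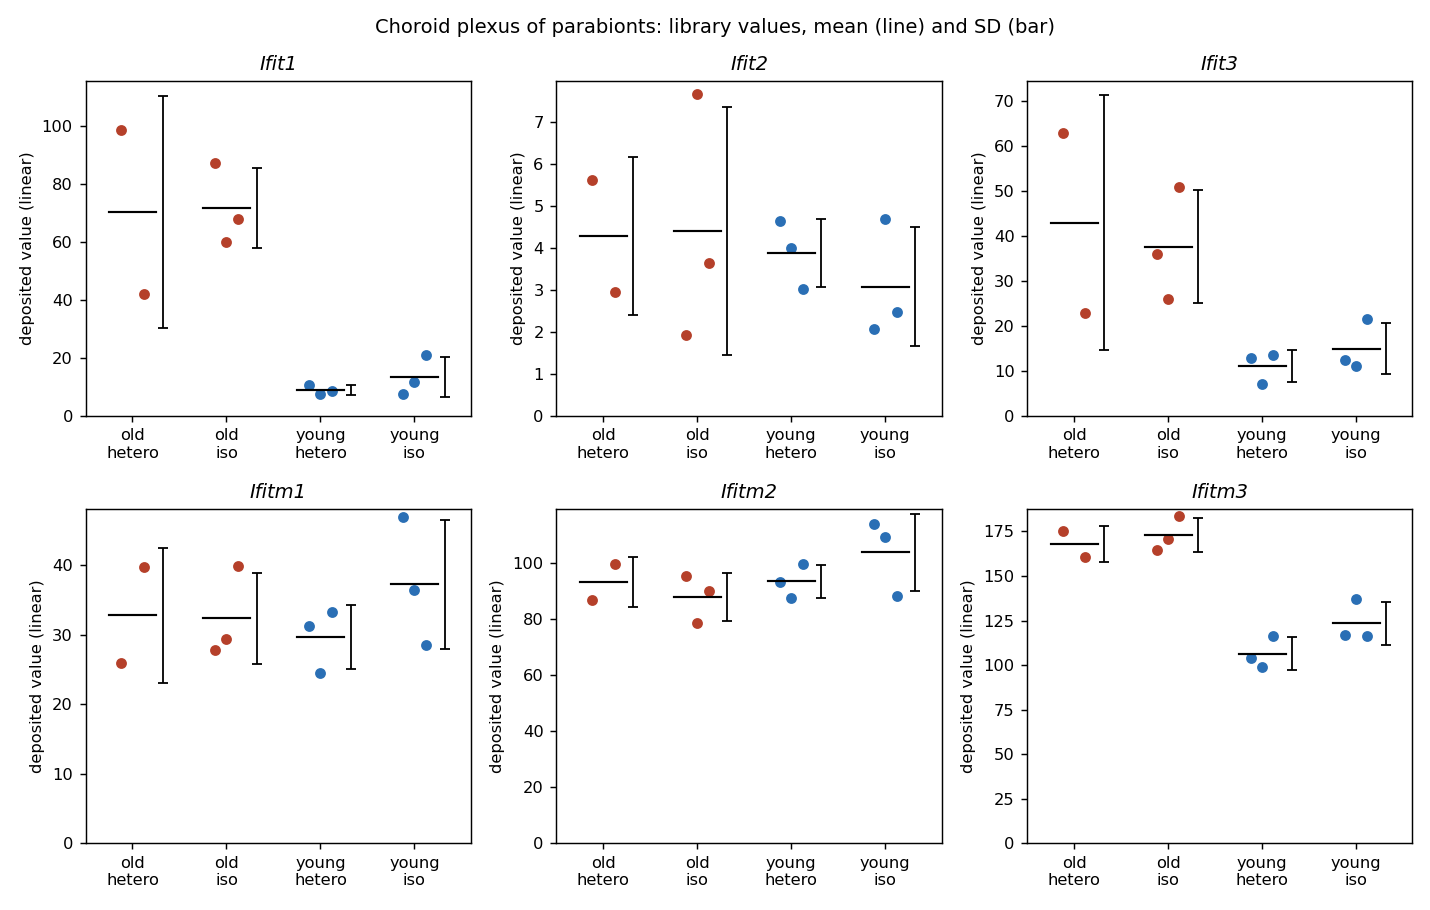
Points are library values (deposited signal, linear axis from 0) of 6 members in choroid plexus of the 4 parabiosis groups, old in red and young in blue, with a line at the mean and a bar of ± 1 SD beside it (n = 2 for old heterochronic, otherwise 3). For Ifit1, Ifit3 and Ifitm3 every old library lies above every young one of the same pairing, while Ifit2, Ifitm1 and Ifitm2 overlap.

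Among other interferon genes in isochronic pairs, 8 of 37 effectors were called higher in old mice and 0 lower (median log2 0.46 against 0.00 over all genes tested), and 0 of 6 receptors. Usp18, which removes Isg15 from its targets, averaged 52.67 ± 5.22 in old isochronic and 11.93 ± 2.35 in young isochronic mice (SD, n = 3 each, log2 2.07, limma adjusted p = 4.74e-05). Ifi27l2a rose by log2 1.26 (adjusted p = 8.13e-05), Rtp4, a chaperone-like protein induced by interferon, by log2 1.77 (adjusted p = 0.00185) and Bst2 by log2 0.45 (adjusted p = 0.0406). Irf7 was at log2 1.55 and did not pass (adjusted p = 0.198). In heterochronic pairs 4 of 37 effectors (Usp18, Trim25, Bst2 and Mx2) were called higher and 0 lower; Trim25 and Mx2 were chosen here after their values were seen. In each of the contrasts between heterochronic and isochronic mice 0 of 46 transducers and effectors were called.

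The 3 genes whose log2 values correlated most with each member were found over the 63 tissue libraries, among 11873 genes. For Ifit1 they were Ifitm3 (Pearson r 0.684), Rtp4 (0.68) and Isg15 (0.66), and for Ifit3 the near copy Ifit3b (0.716), Xaf1 (0.682) and Stat2 (0.666). For Ifitm3 they were H6pd (0.893), an enzyme of the endoplasmic reticulum, Ctdsp1 (0.841) and Tnfrsf1a (0.841), a receptor of tumour necrosis factor, and for Ifitm2 Tnfrsf1a (0.88), Ctdsp1 (0.871) and Dap (0.856). For Ifitm1 they were Ctsh (0.82), a lysosomal protease, Vamp5 (0.805) and Tgfbi (0.802). For Ifitm6 they were S100a9 (0.931), S100a8 (0.925) and Ltf (0.913), proteins of neutrophils. For Ifit2, which is low everywhere, they were Trim30a (0.687), Adcy7 (0.686) and Arhgap9 (0.684). Libraries of a tissue share their tissue and those of a mouse share the animal, so these values describe the tissue pattern above all. Without young mouse 2 (52 libraries) the genes for Ifit2 were instead Rinl (0.703), Itgal (0.702) and Plcb2 (0.694), Ifi44 led for Ifit3 (0.658), ahead of Ifit3b (0.653) and Stat2 (0.653), Usp18 (0.659) took the place of Isg15 for Ifit1 and Mapkapk2 (0.815) that of Vamp5 for Ifitm1. For Ifitm2, Ifitm3 and Ifitm6 the 3 genes were those with all libraries. Over the 11 parabiont libraries, which pool both ages, Ifit1 followed Ifit3 (r 0.93) and Ifitm3 (r 0.91), and the 3 genes most like it were Apol9b (0.978), Oas1g (0.968) and Rfng (0.958). For Ifit3 they were Zfp780b (0.954), Oas1g (0.944) and Ifit1 (0.931), for Ifitm3 Mx2 (0.928), Prom2 (0.927) and Pcdhb14 (0.924), and for Ifit2 Mblac2 (0.951), Gpr157 (0.864) and Fam222a (0.856). For Ifitm1 they were Lrp3 (0.893), Ocln (0.885) and C330018D20Rik (0.873), and for Ifitm2 Igfbp7 (0.915), Thbd (0.899) and Tram1 (0.88). These are the highest of 12101 genes over only 11 libraries, and their r was not tested against chance. Ifit2 averaged 3.88 in parabionts and rested on a few reads there too. Ifitm2 and Ifitm3, at r 0.81 across tissues, were at -0.26 across parabionts.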

How the data were processed

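RNA-seq was done on 63 tissue libraries of 11 tissues from 6 mice and on 11 choroid plexus libraries of parabionts. The deposited signal values are reads per RefSeq transcript divided by 1 factor per library, judged from the values, since no source used here describes the scaling. The submitters' processing notes name TopHat and the mm9 build, without a version or a counting tool. The most frequent value above 0 in a library was taken as the value of 1 read. Between 77.0% and 84.7% of tissue values and 84.5% and 86.1% of parabiont values were whole multiples of it, within 0.001, so depths are estimates. They count only the row kept for each gene. No gene of the parabiosis table was above 993 reads, and levels were not compared between the tables.

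Rows were reduced to the highest-mean row per symbol (Ifitm1 has 2 rows of nearly equal mean). The members and the gene and marker lists were chosen with earlier results of these data known. Values were analysed as log2(value + 1) with limma 3.58.1 in R 4.3.3, with robust empirical Bayes moderation that follows a mean-variance trend, on genes with a mean of at least 2 over the libraries compared. For the comparison of choroid plexus with the other 10 tissues that mean had to be reached in at least 1 tissue. P-values are two-sided, were adjusted by Benjamini-Hochberg over all genes tested, and were called under 0.05. The 4 parabiosis groups shared 1 fit. Methods were tested on simulated data. Members, the interferon lists and the 3 genes most correlated with each member were named by rule. A cell type marker list is given by its summed value.

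Replicates are separate mice per the labels. Aged and young mice share the numbers 1 to 3, but these are different animals. The correlation of same-numbered libraries ran from -0.195 to 0.168 over 30 pairs, and no tissue had every pair over 0.1, so the numbers were not used to pair samples. Alternatives were another pseudocount (4, or the smallest value above 0), no filter or a mean of at least 10, quantile normalization, no trend, voom weights, a block for the mouse number, no mouse term, only the 2 groups compared, and leaving out each library or mouse. A bone marrow library of young mouse 1 and 1 column that matches no listed sample were not analysed here. Promoters came from RefSeq (GRCm38.p6) and transcripts from GENCODE vM21, which is another build than that of the deposited values, so no coordinate was carried between them. A gene of the interferon lists is not reported here.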

Additional observations from a re-analysis of the deposited data

Results flagged for a closer look

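Ifit1 was flagged because its age difference in choroid plexus was larger than the mean of the other 10 tissues, by log2 2.48 (SE 0.51, limma adjusted p = 0.0163). The call was lost without aged mouse 1, aged mouse 2, young mouse 1 or young mouse 3, and with voom. Every aged choroid plexus library lay above every young one, as for 5.41% of genes.

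Ifit3 was flagged in inguinal lymph nodes because every aged library lay below every young one (log2 -2.35), opposite to choroid plexus, where every aged library lay above (log2 1.82). The same held in spleen (log2 -0.92). Neither difference passed the adjusted threshold, and the contrast between these tissues and choroid plexus was not tested for this gene. Aged and young libraries overlapped for the near copy Ifit3b in inguinal lymph nodes, spleen and choroid plexus.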

How the results depend on the processing

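No called member changed direction under any alternative run. Median levels in young tissues moved by less than the spread between mice in 77 comparisons with and without young mouse 2. With so few libraries per tissue that outcome was fixed in advance, so it says nothing about the weight of that mouse. The count of members called in choroid plexus was 2, and 0 without the mean-variance trend and 1 with voom weights; the cause was not tested. In isochronic and in heterochronic parabionts the count was likewise 2, and 0 without the trend and 1 with voom weights. For choroid plexus against the other 10 tissues it was 1, and 0 with voom weights. Leaving out single libraries or mice gave 0 to 2 members for choroid plexus against the other tissues, 0 to 1 in inguinal lymph nodes, 1 to 3 in isochronic and 2 to 3 in heterochronic parabionts, and no other count of members moved. Where this left a group with 1 library, that library was assumed to vary like those of the other groups. The replicate block by mouse number gave 2 members called in choroid plexus and 0 in the other tissues, and changed no count of members; over all genes it gave 48 calls in choroid plexus, against 33.

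Counts over all genes moved more. Without the trend, 2 genes were called in choroid plexus (33 with it), 2 in isochronic (25) and 1 in heterochronic parabionts (17). Without a filter there were 57 in choroid plexus and 318 for choroid plexus against the other tissues (24). The smallest value above 0 as pseudocount, together with its own filter, gave 46 for the latter contrast and 13 in isochronic parabionts, where voom gave 14. Fits of only 2 groups gave 45 in isochronic and 9 in heterochronic parabionts. Leaving out single libraries gave 9 to 33 in isochronic and 9 to 55 in heterochronic parabionts, and 6 to 32 for choroid plexus against the other tissues. At these depths Ifit2 and, outside marrow, Ifitm6 rest on few reads.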

Other observations

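Because tissues share mice, each member was also averaged per mouse over the 7 tissues other than choroid plexus that have all 6 libraries, a test added after the data were seen. With 3 mice against 3, the smallest p an exact two-sided permutation test can give is 0.1, so no difference can pass. Ifitm1 averaged 4.26, 3.54 and 3.91 on the log2(value + 1) scale in aged mice, against 4.44, 4.96 and 4.46 in young mice (exact permutation p = 0.1). Ifit2 averaged 1.48, 1.69 and 1.45 in aged mice, against 2.35, 2.28 and 1.89 in young mice (exact permutation p = 0.1). Ifitm6 averaged 1.58, 1.36 and 1.86 in aged mice, against 1.12, 1.08 and 0.974 in young mice (exact permutation p = 0.1). The aged and young mice did not overlap for these 3 members. Of 14059 genes with a mean of at least 2 in these libraries, 10.2% had every aged mouse above and 8.83% every aged mouse below. The average includes tissues where a member was too low to test, colon, hippocampus, mesenteric lymph nodes and thymus for Ifitm6 and colon and hippocampus for Ifit2. Ifit1, Ifit3, Ifitm2 and Ifitm3 overlapped, with differences of log2 0.25, -0.44, 0.19 and -0.10. Ifitm2 averaged 5.59, 5.82 and 5.90 in aged mice, against 5.41, 5.96 and 5.36 in young mice. It overlapped only through young mouse 2, at 5.96, while the other members named here overlapped without that mouse too. The shares of all genes given above include young mouse 2.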
